A study of Mus musculus with 4 samples.

Results

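The chemokine ligands and receptors described here were the genes of the mouse prefrontal cortex (PFC) tables whose symbols begin with *Ccl* or *Cxcl* and a number, or consist of *Ccr* or *Cxcr* and a number. By this rule, 53 of the 23420 gene symbols were members, of which 36 were ligands and 17 were receptors, with *Cxcr7* as the older symbol of *Ackr3*. In all, 34 members (64.2%) reached 10 counts in at least 2 samples (24 ligands and 10 receptors), compared to 69.7% of all symbols. The 6 members with no count in any sample were *Ccl20*, *Ccl21a*, *Ccl21b*, *Ccl21c*, *Ccl27b* and *Cxcl3*.

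Bulk total RNA of PFC from C57BL6/J mice was sequenced after ribosomal RNA depletion, in 2 control and 2 *Ash1L* shRNA samples, to examine how knockdown of *Ash1L*, a histone methyltransferase gene linked to autism, alters gene expression. *Ash1L* shRNA was expressed from a U6 promoter in GFP-tagged AAV9 injected into the PFC, and punches that contained GFP fluorescence were taken, with all cells of a punch lysed together. The control virus is labelled GFP AAV9, while the paper describes a scrambled shRNA AAV, and by either account control mice were also injected with an AAV. The sources differ on the animals, which were injected at 5 weeks or were 6 to 8 weeks old, and were pooled by 3 per sample or numbered 3 shRNA and 2 GFP mice in all.

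Chemokines are small secreted proteins that attract leukocytes along a gradient, and their receptors couple to Gi proteins. CC and CXC chemokines are named for the spacing of their first cysteines, and most inflammatory ones bind more than 1 receptor. In brain, microglia, astrocytes and endothelial cells can make them after injury, infection or seizures, while *Cxcl12*, *Cxcl14* and *Cxcr7* (an atypical receptor that takes up *Cxcl12* protein) are expressed without inflammation.

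Total counts ran from 14251190 to 35764874 per sample, of which members took 3662 to 10619. *Ash1l*, the targeted gene, had 245 and 290 CPM (counts per TMM-scaled library size) in control samples 1 and 2, and 216 and 138 CPM in *Ash1L* shRNA samples 1 and 2. Both shRNA samples lay below both control samples. Its fold change on the log2 scale was -0.60 (standard error, SE, of 0.22; Benjamini-Hochberg adjusted p = 0.275 by quasi-likelihood in edgeR). Neuron markers (8 genes, led by *Snap25* and *Syt1*) summed to 6851 and 7203 CPM in control and 6160 and 5005 CPM in shRNA samples. Of the 8, 1 was DOWN by the definition that follows, compared to 8.28% of all genes tested. In both shRNA samples, 6 of 8 were lower than in both control samples, compared to 26.8% of all genes tested.

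A gene was termed DOWN or UP at an unadjusted p under 0.05 with at least a 1.2-fold change, the thresholds of the study. Of the 35 members that passed the filter on low counts, 9 were DOWN (25.7%, compared to 8.28% of the 16232 genes tested) and 4 were UP (11.4%, compared to 8.61%). DOWN members were the ligands *Cxcl13*, *Ccl5*, *Cxcl9*, *Cxcl14* and *Ccl27a* and the receptors *Cxcr3*, *Cxcr5*, *Ccr2* and *Cxcr6*. UP members were the ligands *Ccl11*, *Ccl4*, *Ccl2* and *Ccl12*, and 0 of 11 receptors were UP. After Benjamini-Hochberg adjustment of the quasi-likelihood test of edgeR, 0 members passed 0.05 (1 of all genes tested did, 0.00616%), while 13 members had an unadjusted p under 0.05. With DESeq2, the tool of the study, 5 members were lower (0.983% of all genes) and 2 were higher (1.53%) at an adjusted p under 0.05. The lower ones were *Cxcl13*, *Ccl5*, *Cxcr3*, *Ccr2* and *Cxcl9*, and the higher ones were *Ccl11* and *Ccl12*.

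The filter lets a gene pass on 1 group alone. *Ccl11*, *Ccl4* and *Cxcl11* passed through shRNA samples only and *Cxcr5* through control samples only, so that a difference was built into their passing. Among the 31 other tested members, 8 were DOWN and 2 were UP, compared to 8.28% and 8.61% of all genes tested. The UP share of these members was thus below that of all genes, which were not limited in this way. Normalized levels of both shRNA samples lay below both control samples for 11 members (31.4%, compared to 26.8% of all genes) and above them for 11 members (31.4%, compared to 26.5%). The median log2 fold change was -0.05 over members, 0.19 over ligands and -0.54 over receptors, compared to -0.003 over all genes tested. Leaving out control sample 2 leaves 1 control sample, and DOWN calls were then fewer among members and among all genes. In that fit the median log2 fold change over members was 0.28, and *Cxcl13* (-3.18), *Cxcr3* (-2.11) and *Cxcl14* (-0.76) kept their call.

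**Figure D1:**
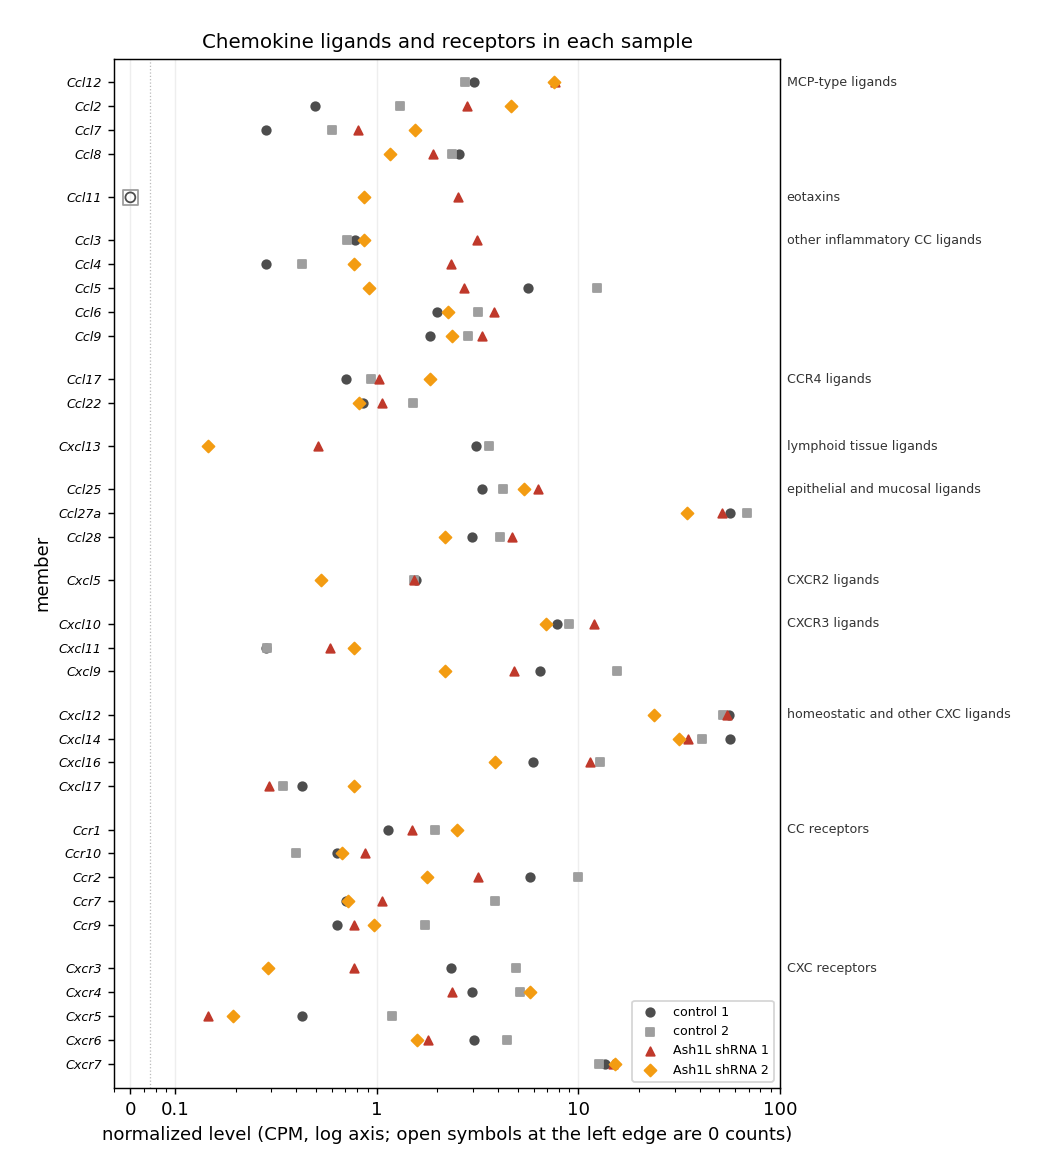
Normalized level (CPM, log axis) of 34 tested members in each of the 4 samples, 1 row per member and 1 symbol per sample, grouped by role. *Cxcl13*, *Ccl5*, *Cxcr3* and *Ccr2* show both *Ash1L* shRNA symbols to the left of both control symbols, and *Ccl12*, *Ccl2* and *Ccl4* show them to the right, while *Ccl11* has 0 counts in both control samples.

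Of the 4 UP members, 3 were monocyte chemoattractants or eotaxins. *Ccl12*, a mouse monocyte chemoattractant, had 3.05 and 2.74 CPM in control samples and 7.67 and 7.58 CPM in shRNA samples. Samples of each group lay close together, and the groups did not overlap. It was UP (log2 fold change of 1.40, SE 0.25, adjusted p = 0.240 in edgeR's quasi-likelihood test), or 2.65-fold higher. *Ccl2*, the main ligand of *Ccr2* protein, had 0.496 and 1.31 CPM in control and 2.81 and 4.63 CPM in shRNA samples. Control sample 1 was lowest and shRNA sample 2 highest, again without overlap, and *Ccl2* was UP (log2 fold change of 1.93, SE 0.52). *Ccl7*, a ligand of several CC receptors, had 0.283, 0.599, 0.803 and 1.54 CPM in the same order of samples. Its groups did not overlap either, but it missed the threshold (log2 fold change of 1.28, SE 0.59).

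*Ccl11* encodes eotaxin, which attracts eosinophils through *Ccr3* protein. No count was found in either control sample, compared to 69 counts (2.52 CPM) in shRNA sample 1 and 18 counts (0.868 CPM) in shRNA sample 2. Pooled over both shRNA samples the level was 1.81 CPM (exact 95% Poisson interval of 1.45 to 2.23, which covers counting error only), at least 29.65-fold higher than the 0.061 CPM that 3 counts over both control samples would give. The fitted log2 fold change of 8.39 (SE 1.42) depends on the prior count and is no measure of size. *Ccl24* and *Ccl26*, the other eotaxins, had at most 7 counts in any sample and were not tested, and neither was *Ccr3*, with at most 7 counts.

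*Ccl8*, a further member of the monocyte chemoattractant family, was not UP. It had 2.55 and 2.37 CPM in control samples and 1.90 and 1.16 CPM in shRNA samples. Both shRNA samples were lower, without a call (log2 fold change of -0.67, SE 0.39). *Ccl2*, *Ccl7*, *Ccl11*, *Ccl12*, *Ccl8* and *Ccl1* lie next to each other in this order on chromosome 11 of mm10 (GRCm38), at chr11:82035571-82305690 in GENCODE vM21. Of the 5 tested genes of this cluster, 3 were UP and 0 were DOWN, compared to 8.61% and 8.28% of all genes tested. *Ccl11* among them passed the filter through shRNA samples only. Since *Ccl12* was UP and its neighbour *Ccl8* was not, the 250 bases before the start of each are shown for comparison, both on the plus strand, from RefSeq with GRCm38.p6 positions chr11:82101595-82101844 for *Ccl12* and chr11:82114935-82115184 for *Ccl8*. Capitals mark matches to the motifs searched on both strands, an NF-kB motif (GGANNTTCC, held by 3.59% of all 32851 promoters of this length) and a TATA motif (TATAAA, held by 12.4%).
Ccl12: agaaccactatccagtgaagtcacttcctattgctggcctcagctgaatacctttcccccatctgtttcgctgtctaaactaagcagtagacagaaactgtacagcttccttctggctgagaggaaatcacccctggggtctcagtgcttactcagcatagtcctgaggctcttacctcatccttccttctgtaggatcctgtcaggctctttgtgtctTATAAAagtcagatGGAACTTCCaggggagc
Ccl8: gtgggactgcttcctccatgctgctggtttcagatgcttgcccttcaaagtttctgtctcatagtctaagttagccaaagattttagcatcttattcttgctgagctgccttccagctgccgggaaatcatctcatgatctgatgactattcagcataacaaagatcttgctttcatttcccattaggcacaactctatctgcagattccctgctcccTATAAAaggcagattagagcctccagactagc
*Ccl12* held a TATA match at position -31 from the start and an NF-kB match at position -17, and *Ccl8* held a TATA match at position -32. Neither window held the letters of the other motifs searched, an interferon-stimulated response element (ISRE, AAANNGAAA, held by 9.37%), an interferon gamma-activated site (GAS, TTCNNNGAA, held by 7.02%) and an AP-1 motif (TGANTCA, held by 6.75%). Binding to these sequences was not measured.

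**Figure D2:**
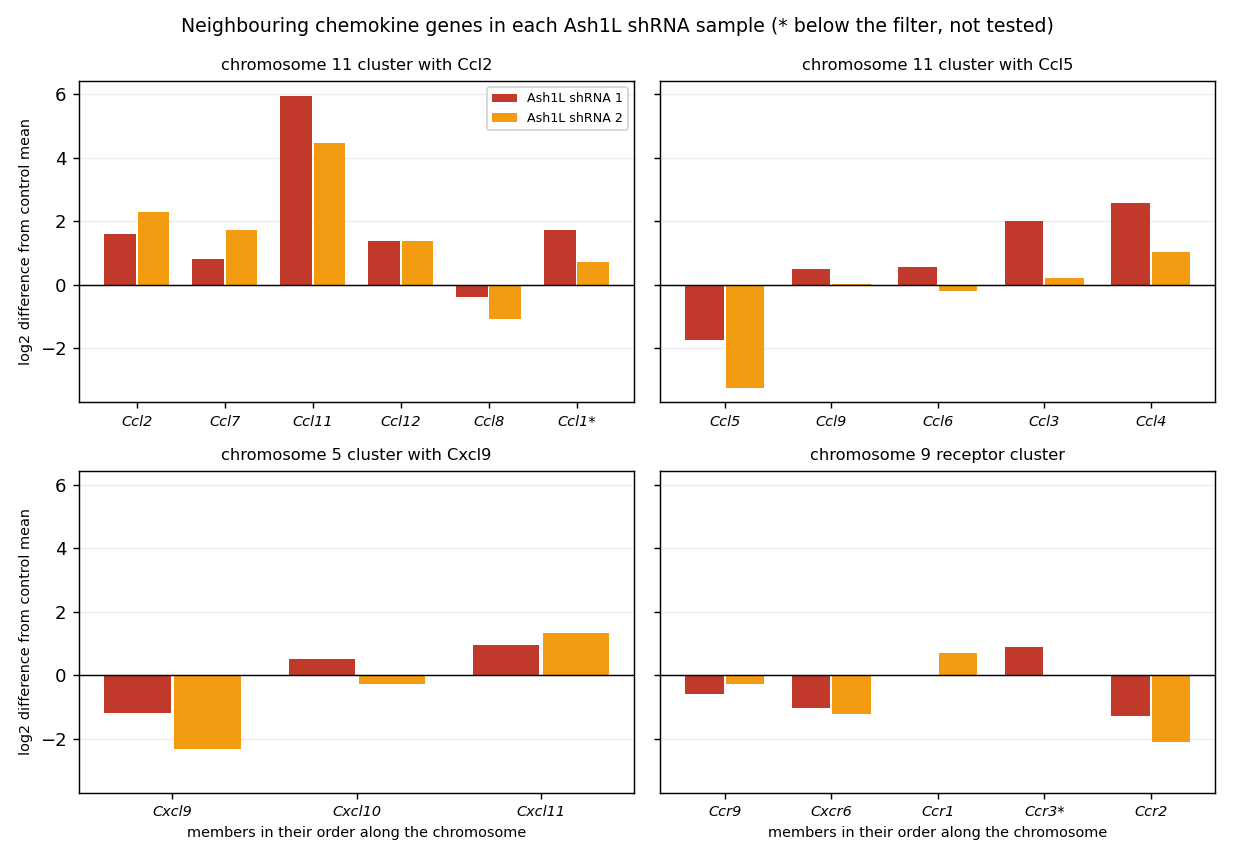
Log2 difference of each *Ash1L* shRNA sample from the control mean (normalized counts plus 1) for neighbouring members, in their order along chromosomes 11, 5 and 9. In the *Ccl2* cluster *Ccl8* lies below 0 beside members above 0, and in the *Ccl5* cluster *Ccl5* lies below 0 in both samples while *Ccl3* and *Ccl4* lie above 0.

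The other inflammatory CC ligands moved in different directions. *Ccl5*, which T and NK cells make and which binds *Ccr1* and *Ccr3* proteins, had 5.60 and 12.4 CPM in control samples. In shRNA samples it had 2.7 and 0.917 CPM. Groups did not overlap, control samples differed from each other by about as much as control sample 1 and shRNA sample 1, and *Ccl5* was DOWN (log2 fold change of -2.30, SE 0.59, adjusted p = 0.255 in edgeR's quasi-likelihood test). Without control sample 2, its log2 fold change was -1.61 and it was no longer called. *Ccl4*, an inflammatory ligand that attracts T cells and macrophages, had 0.283 and 0.428 CPM in control samples and 2.34 and 0.772 CPM in shRNA samples. It was UP (log2 fold change of 2.06, SE 0.68), with shRNA sample 1 well above the others, but was not called without shRNA sample 1 (1.03), control sample 1 (1.88) or control sample 2 (2.44).

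*Ccl3*, the gene beside *Ccl4* and a ligand of *Ccr1* protein, had 0.779, 0.713, 3.14 and 0.868 CPM in control samples 1 and 2 and shRNA samples 1 and 2. ShRNA sample 1 alone stood apart, and *Ccl3* was not called (log2 fold change of 1.45, SE 0.66). *Ccl6* and *Ccl9*, which bind *Ccr1* protein, lay between 1.84 and 3.80 CPM in all samples with overlapping groups, and their log2 fold changes were 0.22 (SE 0.41) and 0.26 (SE 0.38). These 5 genes lie together on chromosome 11 (chr11:83525778-83664683). Of them, 1 was UP and 1 was DOWN, compared to 8.61% and 8.28% of all genes tested, and the UP gene, *Ccl4*, passed the filter through shRNA samples only. Microglia markers (11 genes, among them *Csf1r*, *Cx3cr1* and *P2ry12*, none at 0) summed to 681 and 687 CPM in control samples. In shRNA samples 1 and 2 they summed to 902 and 378 CPM. Their part in these results was not tested. In bulk tissue, fewer cells of a type and less RNA per cell cannot be told apart.

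Among the ligands of *Cxcr3* protein, which interferon gamma induces, *Cxcl9* was DOWN, whereas *Cxcl10* and *Cxcl11* were not called. *Cxcl9* had 6.45 and 15.5 CPM in control samples and 4.78 and 2.17 CPM in shRNA samples. Groups did not overlap, but control sample 1 lay nearer to shRNA sample 1 than to control sample 2. The log2 fold change was -1.66 (SE 0.53, adjusted p = 0.260 in edgeR's quasi-likelihood test), and the call was lost without control sample 2 (-0.88) and without shRNA sample 2 (-1.24). *Cxcl10* had 7.86, 8.95, 11.9 and 6.95 CPM in control samples 1 and 2 and shRNA samples 1 and 2, with overlapping groups and a log2 fold change of 0.17 (SE 0.29). *Cxcl11*, whose transcript in C57BL/6 mice encodes no functional protein, had 0.283, 0.285, 0.584 and 0.772 CPM, with both shRNA samples higher and no call (log2 fold change of 1.23, SE 0.55). Within a sample, the ratio of *Cxcl9* to *Cxcl10* counts was 0.82 and 1.73 in control samples and 0.401 and 0.312 in shRNA samples, and the groups did not overlap. *Cxcl10* and *Cxcl11* each overlap an exon of a gene on the opposite strand (*Art3* and *Gm2673*), and their reads cannot be told apart unless the counting used strand, which is not given in the sources used here.

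*Cxcl9* and *Cxcl10* are neighbours on chromosome 5, both on the minus strand, and their upstream windows are shown because 1 was DOWN and the other was not. RefSeq places them at chr5:92328080-92328329 and chr5:92348890-92349139 of GRCm38.p6, written 5' to 3' along the gene, with motif matches in capitals as above.
Cxcl9: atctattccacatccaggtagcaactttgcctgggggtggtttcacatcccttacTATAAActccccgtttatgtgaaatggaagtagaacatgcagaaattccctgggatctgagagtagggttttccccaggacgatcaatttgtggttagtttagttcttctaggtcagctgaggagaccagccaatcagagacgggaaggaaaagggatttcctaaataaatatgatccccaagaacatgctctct
Cxcl10: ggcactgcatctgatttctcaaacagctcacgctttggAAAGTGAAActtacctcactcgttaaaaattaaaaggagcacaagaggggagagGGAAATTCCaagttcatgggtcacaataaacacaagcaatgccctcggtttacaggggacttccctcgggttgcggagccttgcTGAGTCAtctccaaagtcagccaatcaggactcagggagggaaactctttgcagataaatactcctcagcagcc
The window of *Cxcl10* held an ISRE match at position -212, an NF-kB match at position -158 and an AP-1 match at position -74. The window of *Cxcl9* held a TATA match at position -195 and none of the letters of the other motifs. This says nothing about sites outside these 250 bases, or about interferon or other sites within them that are spelled differently. Of 17 other genes of the interferon gamma response, 0 were UP and 1 was DOWN (*Psmb8*, an immunoproteasome subunit), compared to 8.61% and 8.28% of all genes tested. The log2 fold changes of these 17 genes had a median of -0.49. Their summed level was 432, 689, 529 and 448 CPM in control samples 1 and 2 and shRNA samples 1 and 2. Control sample 2 was highest in this sum, as it was for *Cxcl9*.

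*Cxcl13*, which attracts B cells through *Cxcr5* protein, showed the largest lower value of the DOWN members. It had 3.12 and 3.62 CPM in control samples and 0.511 and 0.145 CPM in shRNA samples, from 44, 127, 14 and 3 counts. Groups were well separated, and the log2 fold change was -3.28 (SE 0.56, adjusted p = 0.240 in edgeR's quasi-likelihood test), or 9.74-fold lower. It was DOWN under every alternative in which it was tested, also with each sample left out in turn (-4.50 to -2.72). The other ligands of lymphoid tissue were nearly absent, with 1 count of *Ccl19* and none of *Ccl20* or the *Ccl21* genes.

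Most member counts fell on 3 ligands. *Ccl27a*, *Cxcl12* and *Cxcl14* together took 64.7%, 53.4%, 55.2% and 50.4% of member counts in control samples 1 and 2 and shRNA samples 1 and 2. Per kilobase of exon, control levels were highest for *Cxcl14* (26.7 CPM per kb), *Ccl27a* (26.2), *Ccl5* (9.37), *Cxcl12* (6.59) and *Ccl12* (5.38). *Cxcl14*, a chemokine that interneurons of the cortex express, had 56.2 and 41.3 CPM in control and 34.8 and 31.6 CPM in shRNA samples. Control sample 1 stood above the other 3 samples, and *Cxcl14* was DOWN (log2 fold change of -0.55, SE 0.18), but not without control sample 1 (-0.30). *Cxcl12*, which guides cells through *Cxcr4* protein, had 55.6, 52.1 and 54.4 CPM in both control samples and shRNA sample 1 and 23.6 CPM in shRNA sample 2. ShRNA sample 2 alone was low, and the log2 fold change was -0.46 (SE 0.38).

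*Ccl27a*, a ligand of *Ccr10* protein known from skin, had 56.2 and 68.4 CPM in control samples and 51.5 and 34.7 CPM in shRNA samples. It was DOWN (log2 fold change of -0.53, SE 0.21), but was not called without shRNA sample 2 (-0.28), control sample 1 (-0.66) or control sample 2 (-0.38), nor with the replicate number as a block (-0.55). Its count is uncertain, since 45% of the 50-base words of its transcripts also occur in transcripts of other genes. *Cxcl16*, a membrane-bound ligand of *Cxcr6* protein, had 5.95, 12.7, 11.4 and 3.86 CPM, with shRNA sample 1 near control sample 2 and shRNA sample 2 lowest (log2 fold change of -0.31, SE 0.58). *Ccl25*, which attracts cells to the gut through *Ccr9* protein, had 3.33 and 4.25 CPM in control and 6.28 and 5.40 CPM in shRNA samples. It was higher in both shRNA samples and missed the threshold (log2 fold change of 0.61, SE 0.27). *Cxcl5*, the sole tested neutrophil chemoattractant, had 1.56, 1.54 and 1.53 CPM in the first 3 samples and 0.531 CPM in shRNA sample 2, while *Cxcl1* had 0, 2, 6 and 16 counts and was not tested.

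The remaining ligands were not called or not tested. *Ccl17* and *Ccl22*, which attract regulatory and helper T cells through *Ccr4* protein, had log2 fold changes of 0.74 (SE 0.49) and -0.37 (SE 0.48), and *Ccl17* was higher in both shRNA samples. *Ccl28*, a mucosal ligand, lay between 2.17 and 4.67 CPM, and *Cxcl17*, a mucosal chemokine, between 0.292 and 0.772 CPM, each with overlapping groups. *Ccl1* had at most 9 counts and *Cxcl2* at most 2 counts in any sample. *Cxcl16*, *Ccl25* and *Cxcr5* each overlap an exon of another gene (*Zmynd15*, *Elavl1* and *Bcl9l*), and the receptor *Ccr9* overlaps exons of several genes over a longer stretch (among them *Gm17200* on the same strand), so that their counts may hold reads of them.

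**Figure D3:**
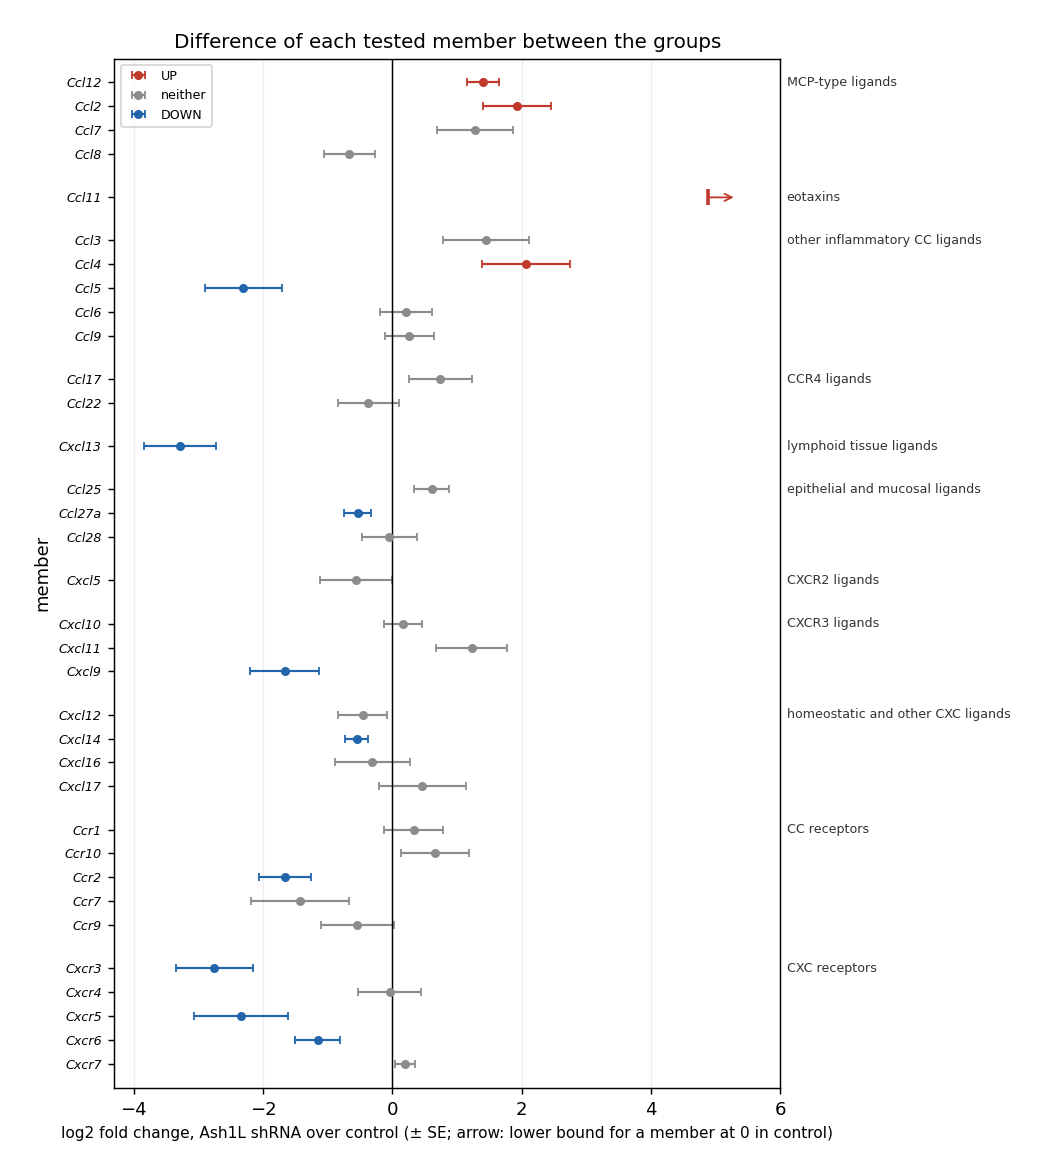
Log2 fold change with its SE for 34 tested members, *Ash1L* shRNA over control, grouped by role, with DOWN in blue, UP in red and the other members in grey. The 4 DOWN receptors lie between -2.75 and -1.15, and *Ccl11* is drawn as a lower bound because both control samples had 0 counts.

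Receptors were DOWN or not called. *Cxcr3*, which activated T cells and NK cells carry, had 2.34 and 4.90 CPM in control samples and 0.767 and 0.289 CPM in shRNA samples. Groups did not overlap, and the log2 fold change was -2.75 (SE 0.59, adjusted p = 0.250 in edgeR's quasi-likelihood test), and it was DOWN under every alternative in which it was tested (-3.67 to -2.11). *Cxcr5*, the B cell receptor for *Cxcl13* protein, had only 6, 42, 4 and 4 counts. Both shRNA samples were lower in CPM (0.146 and 0.193, compared to 0.425 and 1.2), and it was DOWN (log2 fold change of -2.34, SE 0.72), but not without shRNA sample 1 (-2.16). *Cxcr6*, found on activated T cells and NKT cells, had 3.05 and 4.42 CPM in control and 1.79 and 1.59 CPM in shRNA samples. It was DOWN (log2 fold change of -1.15, SE 0.35), except without control sample 2 (-0.85).

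*Ccr2*, the receptor that brings monocytes out of the blood, had 5.74 and 9.98 CPM in control samples and 3.18 and 1.78 CPM in shRNA samples. Groups did not overlap, and it was DOWN (log2 fold change of -1.67, SE 0.40, adjusted p = 0.253 in edgeR's quasi-likelihood test), but not without control sample 2 (-1.20). Its ligand genes *Ccl2* and *Ccl12* were UP in the same samples, whereas *Cxcl13* and *Cxcr5*, and *Cxcl9* and *Cxcr3*, were both DOWN. Other ligands did not go with their receptors. *Cxcl10* (log2 fold change of 0.17) and *Cxcl11* (1.23) were not called beside *Cxcr3*, nor was *Cxcl16* (-0.31) beside *Cxcr6*. *Cxcr5* passed the filter through control samples only, so that a lower value was built in. *Ccr9*, *Cxcr6*, *Ccr1*, *Ccr3* and *Ccr2* lie near each other in this order on chromosome 9 (chr9:123678439-124113557). Of the 4 tested genes among them, *Ccr2* and *Cxcr6* were DOWN, compared to 8.28% of all genes tested. *Ccr7*, the receptor of lymph node homing, had 0.708, 3.88, 1.06 and 0.724 CPM, so that control sample 2 alone was high, and its log2 fold change of -1.42 (SE 0.76) became 0.33 without that sample.

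The receptors for *Cxcl12* protein were not called. *Cxcr4* had 2.98, 5.16, 2.37 and 5.74 CPM, with the control samples lying between the shRNA samples (log2 fold change of -0.04, SE 0.49). *Cxcr7* had 13.6 and 12.7 CPM in control and 14.9 and 15.2 CPM in shRNA samples, a narrow range with both shRNA samples higher (log2 fold change of 0.19, SE 0.16). *Ccr1*, *Ccr9* and *Ccr10* lay between 0.399 and 2.51 CPM and were not called, and *Ccr3*, *Ccr4*, *Ccr6*, *Ccr8*, *Cxcr1* and *Cxcr2* were not tested, the highest of them at 22 counts (*Ccr6* in control sample 2).

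The shRNA samples differed in how far members lay from control. For 8 of 9 DOWN members, the difference from the control mean was larger in shRNA sample 2 (median of -2.11 on the log2 scale, compared to -1.30 in shRNA sample 1), and this held for 90% of all DOWN genes. Of the 4 UP members, only *Ccl2* was farther from control in shRNA sample 2, compared to 80.8% of all UP genes.

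**Figure D4:**
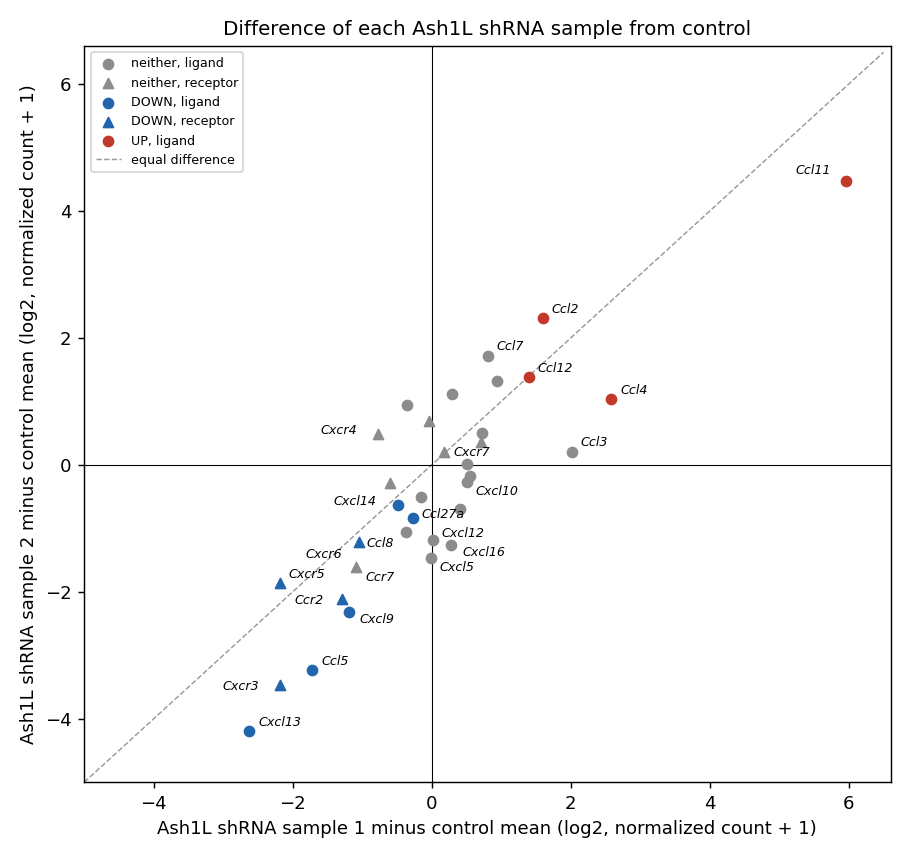
Log2 difference from the control mean (normalized counts plus 1) in *Ash1L* shRNA sample 1 (horizontal axis) and sample 2 (vertical axis) for 34 tested members, with the dashed line at equal differences. DOWN members, in blue, lie mostly below the line, and *Ccl4*, *Ccl3* and *Ccl11* lie to its right, with a larger difference in sample 1.

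Markers of T, NK, B and plasma cells summed to lower levels in both shRNA samples, beside the DOWN members that such cells are known to express. Over all genes tested, 8.28% were DOWN and 8.61% were UP, and these shares apply to each list below. Of 14 tested T and NK cell markers, 8 were DOWN (among them *Cd4* and *Cd3g*) and 0 were UP. The 15 markers summed to 19.6 and 40.5 CPM in control and 11.5 and 9.51 CPM in shRNA samples. Of 8 tested B and plasma cell markers, 6 were DOWN, among them *Cd79a* and *Ms4a1*, and the 9 markers summed to 166 and 160 CPM in control and 28.4 and 3.67 CPM in shRNA samples. *Igj*, the immunoglobulin joining chain, made up most of this sum in all samples but shRNA sample 2 (142, 134, 23.4 and 0.724 CPM) and was not called. The defining markers were low in control samples too, with 0.779 and 2.42 CPM of *Ms4a1* and 0.496 and 1.34 CPM of *Cd3e*, and no marker was at 0 in all samples. Of 11 tested monocyte and macrophage markers 4 were DOWN (*Ly6c2*, *Itga4*, *Itgal* and *Mrc1*), and their sums overlapped between groups (87.2, 113, 57.9 and 93.2 CPM). This overlap rested on *Cd44*, which was at 10.6 and 11.5 CPM in control and 12.05 and 46.3 CPM in shRNA samples and was not called. Without *Cd44*, left out after its values were seen, the other 11 markers summed to 76.6 and 101.6 CPM in control and 45.9 and 46.8 CPM in shRNA samples. Single markers went both ways, as 7 of the 11 tested markers had a log2 fold change below 0 and the rest, *Cd44* among them, lay above it. *Ly6c2*, of inflammatory monocytes, had 10.2 and 20.6 CPM in control and 1.57 and 1.25 CPM in shRNA samples. The part of these cells in the values of *Cxcr3*, *Cxcr5*, *Cxcr6*, *Ccr2*, *Ccl5* and *Cxcl13* was not tested.

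Among the other marker lists, those of astrocytes held the most DOWN genes. Of all genes tested, 8.28% were DOWN and 8.61% were UP. Endothelial markers summed to 273 to 320 CPM with 1 of 8 UP, and leptomeningeal fibroblast markers to 107, 171, 168 and 169 CPM with 2 of 8 UP (*Col3a1* and *Lum*) and 1 DOWN (*Slc6a13*). Astrocyte markers summed to 3106 to 5111 CPM with 5 of 8 DOWN and both shRNA samples lower, and dendritic cell markers to 37.9 to 81.1 CPM with 1 of 6 DOWN (*Xcr1*). Of 7 neutrophil markers, which summed to 8.15 to 20.6 CPM, 2 were tested and 1 was UP (*Mpo*), and *S100a8*, *S100a9* and *Retnlg* had at most 0.496 CPM. Microglia markers had 1 of 11 UP (*Olfml3*), and the part of these cell types in the values of members was not tested.

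**Figure D5:**
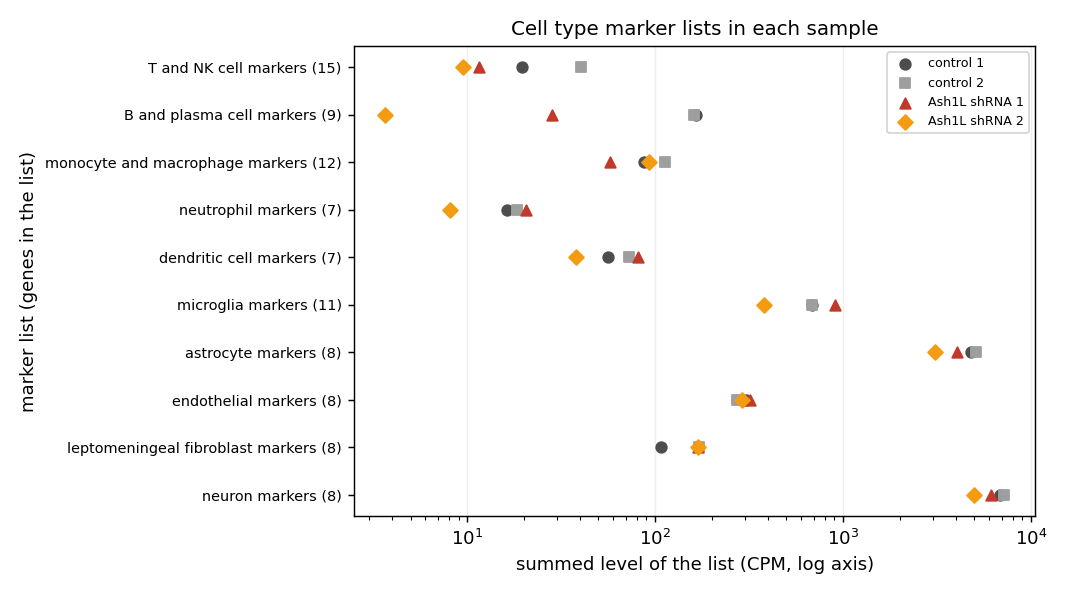
Summed level (CPM, log axis) of each cell type marker list in the 4 samples, 1 symbol per sample. T and NK cell and B and plasma cell markers lie lower in both *Ash1L* shRNA samples, and microglia markers lie highest in shRNA sample 1 (902 CPM) and lowest in shRNA sample 2 (378 CPM).

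Genes around the chemokines were counted in the same way, beside 8.28% DOWN and 8.61% UP of all genes tested. Of 10 tested genes of other chemokines, atypical receptors and related proteins, 2 were DOWN and 0 were UP. *Cx3cl1*, the neuronal ligand of the microglial receptor *Cx3cr1*, had 671 and 649 CPM in control and 570 and 442 CPM in shRNA samples and was DOWN (log2 fold change of -0.38, SE 0.15). *Cx3cr1* had 96.6, 92.4, 126 and 52.8 CPM, with shRNA sample 1 highest and shRNA sample 2 lowest, and was not called. *Xcr1*, a receptor of dendritic cells, was the other DOWN gene.

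Among 20 tested inducing cytokines, their receptors and NF-kB genes, the median was 0.20 on the log2 scale. Of them, 5 were UP and 0 were DOWN, compared to 8.61% and 8.28% of all genes tested. The UP genes were *Il1a*, *Il1b*, *Tnfrsf1a*, *Il6st* and *Ifngr2*. *Il1b*, an inflammatory cytokine, had 0.992 and 1.28 CPM in control and 2.41 and 8.2 CPM in shRNA samples, and shRNA sample 2 stood well above the rest (log2 fold change of 2.18, SE 0.63). *Nfkb1*, a subunit of NF-kB, was not called, and *Ifng* had at most 0.456 CPM and was not tested. Among 22 genes that carry chemokine receptor signals, 1 was UP (*Gng2*) and 3 were DOWN, compared to 8.61% and 8.28% of all genes tested. The DOWN genes were *Ptk2b*, a kinase downstream of chemokine receptors, and *Adrbk1* and *Adrbk2*, kinases that desensitize these receptors.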

How the data were processed

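PFC RNA of 2 control and 2 *Ash1L* shRNA samples was grouped by the sample labels. The authors deposited raw counts per gene symbol, made with STAR (mm10) and featureCounts, whereas the labels describe Cutadapt and TopHat2. Strand and multiple-mapping settings are not given in the sources used here. Members and gene lists were chosen with earlier results of these data known. All members could be named, with up to 4 genes per other list by mean level, defining markers, and *Ifng* and calls of 5 or fewer, chosen after their values were seen.

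Counts were filtered with filterByExpr (10 counts at the median library, 0.42 CPM, in at least 2 samples), scaled by TMM and tested with edgeR 4.0.16 (glmQLFit with robust estimation, glmQLFTest; R 4.3.3), with Benjamini-Hochberg adjustment over 16232 genes. SE was derived from the F statistic (absolute log2 fold change over its square root). DESeq2 1.42.0 was an alternative. The script was tested on simulated data. The labels call the samples biological duplicates, but p-values measure only the spread between these samples. Their chi-square per degree of freedom was 15.4 (control) and 44.6 (shRNA). Deviations of same-numbered samples correlated at -0.11, so they were not treated as pairs. Some genes that the rule for names allows are not reported here. Of the 53 members, 37 had a RefSeq promoter entry.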

Additional observations from a re-analysis of the deposited data

How the results depend on the processing

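Alternatives were DESeq2, the likelihood ratio test, RLE and library-size scaling, 3 other filters, a 1.5-fold limit, no robust estimation, a replicate block, and each sample left out in turn, where the lone sample is assumed to vary like the other group. *Ccl11*, *Ccl12*, *Ccl2*, *Cxcl13* and *Cxcr3* kept their call under every alternative in which they were tested gene by gene (all but the 1.5-fold limit and the fit without robust estimation, which gave counts alone). Of these, only *Ccl12* was tested with at least 10 counts in every sample. *Ccl11* passed the filter through shRNA samples only, so a difference was built in and its kept call is no separate support. The count of UP members was 1 with at least 10 counts in every sample (*Ccl12*) and 7 with the likelihood ratio test (8.55% and 8.72% of all genes), and the median log2 fold change was -0.25 with that filter. Members past an adjusted p of 0.05 numbered 7 with DESeq2 and 7 with the likelihood ratio test (2.52% and 2.95% of all genes). With each sample left out in turn, which leaves 1 sample in a group, the median log2 fold change over members was -0.39 to 0.28. It was lowest without shRNA sample 1 and highest without control sample 2. DOWN calls were more numerous without the former and fewer without the latter, among members and among all genes. With the replicate block, 8 members were DOWN (6.28% of all genes), 5 were UP (6.48%), 0 passed the adjusted p and the median was -0.13. Here *Ccl27a* lost its call and *Ccl7* gained one (1.41), and no other call changed. The crossed pairing, chosen after seeing the data, gave 9 DOWN and 4 UP members (10.7% and 9.49% of all genes). Signs turned in 12 of the uncalled members reported here without 1 sample, with log2 fold changes of -0.67 to 0.14 for *Ccl22*, -0.73 to 0.38 for *Ccl28*, -0.23 to 0.61 for *Ccl6*, -0.021 to 0.62 for *Ccl9*, -0.087 to 0.81 for *Ccr1*, -2.10 to 0.33 for *Ccr7*, -0.998 to 0.43 for *Ccr9*, -0.29 to 0.50 for *Cxcl10*, -1.19 to 0.018 for *Cxcl12*, -1.32 to 0.36 for *Cxcl16*, -0.34 to 1.03 for *Cxcl17* and -0.81 to 0.45 for *Cxcr4*. *Cxcr4* was also 0.008 with library-size scaling. The cause of these changes was not tested.

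With 2 samples per group, an exact permutation test cannot give a two-sided p below 0.333. Depth limits the members with few counts, of which 18 were not tested.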
